A study of Danio rerio with 6 samples.

Results

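The Bmp and Tgf-beta pathway genes were examined in GFP-positive cells sorted from zebrafish embryos at the 15-somite stage. Members were the genes whose symbol in the table begins with acvr, inhb, chrd, grem, fst, bambi, smurf or msx, with smad or gdf and a digit, with bmp and a digit or r, with tgfb and a digit, r or i, with id and a digit from 1 to 4, or with nog and a digit from 1 to 3. This gave 79 of the 19722 listed genes. A gene name list keyed by Ensembl identifier added 13 genes of the same families whose symbol was blank or different in the table, among them smad1, smad5 and id2b. These 13 are given beside the members and are named as added each time.

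The cells came from 2 lines labelled wild type in genotype, with the tissue given as endocardium for one and endothelium for the other. Gt(endocard:egfp) is the gene trap Gt(SAGFF27C), which drives Gal4, together with Tg(4xUAS:egfp), and its brightest cells were kept because cardiomyocytes carry weak GFP in this line. Tg(fli1a:egfp) marks endothelial cells, the endocardium among them, and blood cells, so the sorted populations can share cell types. There were 3 libraries of each line, each amplified from 2 ng of RNA, and the embryos came from outcrosses of reporter fish to wild type. The reporter fish were homozygous for Gt(endocard:egfp) and heterozygous for Tg(fli1a:egfp). Both groups thus share the stage and the wild type label. They differ in the transgenes they carry and so in the reporter that defined the sort.

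The only value analysed for each gene was the authors' mean expression. It was taken as the mean over all 6 libraries, in log2 CPM (read counts scaled to library size, on a log2 scale). The deposited heading names neither the libraries nor the unit, so this reading follows what limma writes. The mean is printed here also as CPM, which is then a geometric mean over the libraries. The mean does not keep the lines apart, so nothing is said here on how the gene trap cells differed from the fli1a cells, and neither the spread between libraries nor the depth of each library is known from it. If every library weighs alike, at least one line had a mean at or above the printed value. CPM is not scaled to transcript length, and transcript lengths were not used here, so values of different genes are set side by side as read levels and not as an order of transcript numbers. In RNA pooled from many cells, fewer cells of a type and less RNA per cell cannot be told apart.

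Bmp ligands bind a complex of type I and type II serine/threonine kinase receptors, and the type I receptor phosphorylates Smad1, Smad5 or Smad9. Tgf-beta and activin ligands use receptors of the same families, some of them shared with Bmp ligands, and signal through Smad2 and Smad3. Both branches share Smad4 as a partner that enters the nucleus with them. Bmp signalling patterns the ventral mesoderm of the early zebrafish embryo and later acts in the heart. Secreted proteins such as Noggin and Chordin hold ligands away from receptors, and inhibitory Smads are induced by the pathway and dampen it.

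Most of the listed members reached 1 CPM, as most of all listed genes did. Of the 79 members, 65 (82.3%) had a mean of 1 CPM or more, where 73.9% of all listed genes did. At 10 CPM or more there were 39 members (49.4%) against 42.3% of all listed genes, and at 100 CPM or more there were 8 (10.1%) against 9.22%. The median of the members was 3.22 log2 CPM (9.34 CPM), beside 2.58 log2 CPM (5.98 CPM) for all listed genes. It lay at percentile 56.7 of all listed genes but at percentile 48.1 of the genes with a symbol, which every member has, so its place above or below the middle turned with the background. The shares of members lay within 10 percentage points of the background at each of these levels. Shares at these levels among genes with a symbol were not computed. The 8 members at 100 CPM or more were id1, id2a, id3, tgfbi, fstl1b, acvr1l, bambia and bmp3.

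Counts of members at 1 CPM or more are given by role, where 73.9% of all listed genes reached that level. Most roles hold few members, and whether their shares differ from that of all listed genes was not tested. Every one of the 4 receptor-regulated Smads, the common Smad, the 3 inhibitory Smads, the 10 type I receptors, the 4 membrane and intracellular antagonists and the 8 targets had at least 1 CPM. It was 6 of the 8 type II receptors, 15 of the 17 Bmp and Gdf ligands and 6 of the 12 secreted antagonists. The co-receptor was below 1 CPM. Further, 3 of the 4 Tgf-beta ligands, 2 of the 3 activin ligands and 1 of the 2 Tolloid proteases reached 1 CPM. With the added genes, 10 of 11 targets and 7 of 13 secreted antagonists reached it. The role medians were 5.65 log2 CPM for inhibitory Smads, 5.59 for targets, 4.98 for membrane and intracellular antagonists and 4.75 for receptor-regulated Smads. They were 3.95 for type I receptors, 3.43 for Tgf-beta ligands, 2.44 for type II receptors and 2.26 for Bmp and Gdf ligands. Activin ligands had 1.61, Tolloid proteases 1.37 and secreted antagonists -0.09. With the added genes the median of the targets was 4.22 and that of the receptor-regulated Smads 5.32, which turned their order, and that of the secreted antagonists was 0.48. Among members at or above 1 CPM alone, the secreted antagonists had a median of 2.74 and the Bmp and Gdf ligands one of 2.66. The order of the role medians thus depended on which genes were counted, and no test between roles was made.

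**Figure D1:**
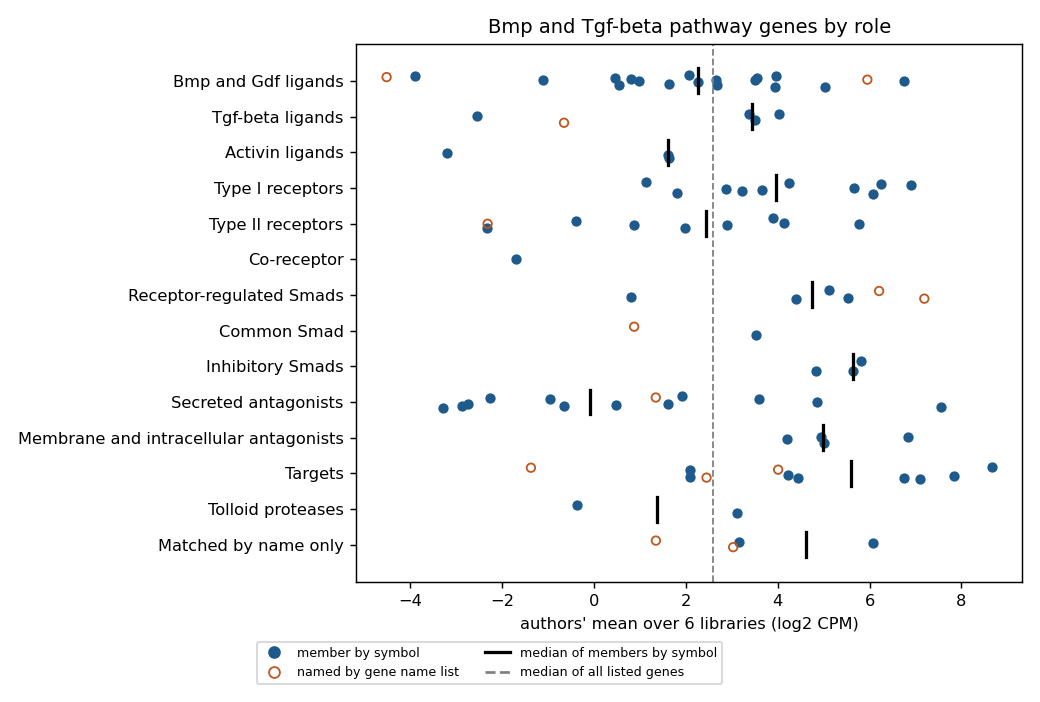
Mean read level of each pathway gene by role. Each point is 1 gene at the authors' mean over 6 libraries in log2 CPM (horizontal axis); filled points are the 79 members, open points the 13 genes added by the gene name list, black bars the role medians of the members and the dashed line the median of all listed genes, 2.58. Points are spread vertically only for legibility. The inhibitory Smads all lie right of the dashed line, whereas the secreted antagonists run from -3.29 to 7.56.

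The Bmp and Gdf ligands comprised 17 members, of which 15 (88.2%) had at least 1 CPM, where 73.9% of all listed genes did. bmp3, whose product opposes Bmp signalling in bone in mammals, was at 107 CPM and was the one ligand of this group at 100 CPM or more. gdf6a was at 32.5 CPM. bmp7a, which with bmp2b patterns the ventral side of the gastrula, had 15.6 CPM, and bmp2b itself had 6.30. bmp4, a ligand of the developing heart, was at 15.4 CPM and bmp6 at 11.6 CPM. gdf3, the zebrafish Vg1 that acts with Nodal in mesoderm induction, was at 11.4 CPM. These levels put 6 of the 17 ligands (35.3%) at 10 CPM or more, where 42.3% of all listed genes were.

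The other Bmp and Gdf ligands were found at a few CPM or less. gdf10a had 6.36 CPM, bmp8a 4.80, bmp5 4.17, bmp2a 3.09, gdf11 1.98, gdf6b 1.76 and bmp7b 1.37 CPM. bmp10, a ligand of the heart that signals through acvrl1 in blood vessels, was at 1.45 CPM. The members below 1 CPM were bmp15 and gdf9, known for their part in the oocyte, with 0.464 and 0.0674 CPM. bmp16, added by the gene name list, was at 61.9 CPM, and gdf7, added in the same way, was at 0.0437 CPM, the lowest value in the whole set.

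Ligands of the Tgf-beta branch were represented by 4 members. tgfb1a, tgfb3 and tgfb1b were at 16.3, 11.3 and 10.3 CPM, whereas tgfb2 was at 0.170 CPM. The added tgfb5 was at 0.636 CPM. Activin subunits were low in reads, with inhbaa at 3.08 CPM, inhbb at 3.05 CPM and inhbab at 0.109 CPM.

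All 10 type I receptors had at least 1 CPM, where 73.9% of all listed genes did. acvr1l, the zebrafish Alk8 through which Bmp patterns the gastrula, was at 119 CPM. Both copies of bmpr1a were well covered, with bmpr1aa at 50.8 CPM and bmpr1ab at 66.9 CPM, while bmpr1ba was at 9.34 and bmpr1bb at 2.18 CPM. acvr1ba, a receptor for activin and Nodal, was at 75.8 CPM and its copy acvr1bb at 3.49 CPM. acvrl1 (Alk1), a receptor of arterial endothelium, was at 18.9 CPM. The receptors for Tgf-beta, tgfbr1b and tgfbr1a, were at 12.7 and 7.35 CPM. Reads of receptor genes of both branches were thus found. Of the 10 type I genes, 6 (60.0%) had 10 CPM or more, where 42.3% of all listed genes did.

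The 8 type II receptors covered a wider range on the log2 scale, which rests on tgfbr2a and acvr2ab, both below 1 CPM. How many reads lie behind such low values is not known. At least 1 CPM was reached by 6 of them (75.0%), where 73.9% of all listed genes did. tgfbr2b, which binds Tgf-beta ligands, was at 54.6 CPM, and its copy tgfbr2a was at 0.765 CPM. The activin receptors acvr2aa and acvr2ba, which also serve Bmp ligands, were at 17.7 and 14.8 CPM, acvr2bb was at 3.92 CPM and acvr2ab at 0.199 CPM. The Bmp receptors bmpr2b and bmpr2a were at 7.48 and 1.82 CPM. The added tgfbr2l was at 0.201 CPM. tgfbr3 (betaglycan), a co-receptor that presents ligand to the type II receptor, was at 0.306 CPM.

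**Figure D2:**
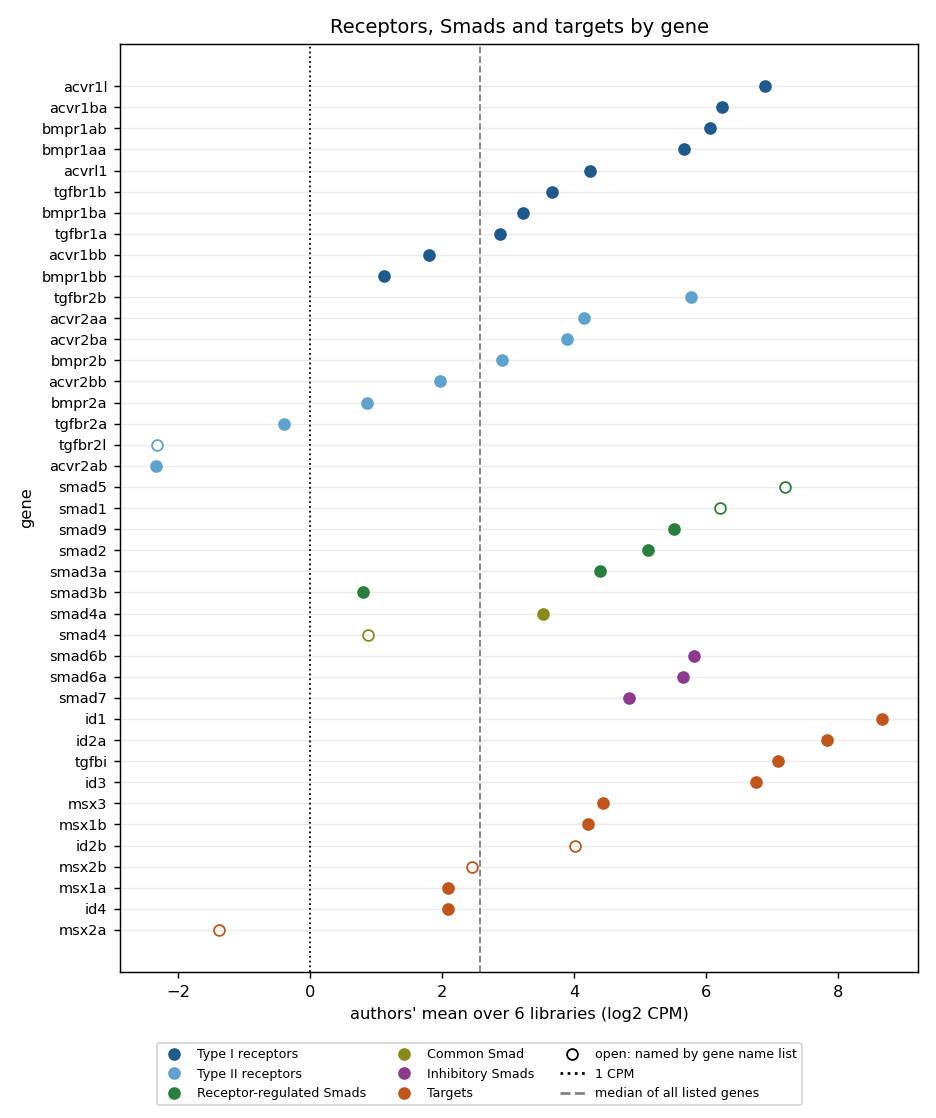
Mean read level of the type I and type II receptor, Smad and target genes. The co-receptor tgfbr3 and the added smad10a and smad10b are not drawn. Each point is 1 gene at the authors' mean over 6 libraries in log2 CPM (horizontal axis), coloured by role; open points are genes added by the gene name list, the dotted line is 1 CPM and the dashed line the median of all listed genes. acvr2ab, tgfbr2a and the added tgfbr2l and msx2a are the points left of 1 CPM, and id1 reaches 8.67.

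Smads of the Bmp branch and of the Tgf-beta branch were both detected. smad9 (45.8 CPM) is the one Smad of the Bmp branch among the members, and the gene name list added smad5 at 146 CPM and smad1 at 73.8 CPM. In the Tgf-beta branch, smad2 was at 34.6 CPM, smad3a at 21.0 CPM and smad3b at 1.75 CPM. smad4a, the common partner, was at 11.6 CPM, and another gene that the list names smad4 was at 1.83 CPM. Among the inhibitory Smads, smad6b was at 56.3 CPM, smad6a at 50.2 CPM and smad7, which acts on both branches, at 28.4 CPM. The added smad10b and smad10a share a single symbol in the table and were at 8.16 and 2.54 CPM. How reads were divided between them was not tested.

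The secreted antagonists fell into 3 members at 10 CPM or more, 3 between 1 and 10 CPM and 6 below 1 CPM. Those at 10 CPM or more all carry the follistatin name, namely fstl1b at 189 CPM, fstl1a at 29.1 CPM and fsta, which binds activin, at 11.97 CPM. The Noggins and Chordin, which bind Bmp ligands directly, lay in the middle, with nog1 at 3.75 CPM, chrd at 3.04 CPM, nog3 at 1.39 CPM and the added nog2 at 2.54 CPM. The Gremlins grem2b and grem1a were at 0.638 and 0.209 CPM. fstl5, fstl3, chrdl2 and fstb were at 0.517, 0.148, 0.137 and 0.102 CPM. None of the Noggin, Chordin and Gremlin members reached 10 CPM, a level that 42.3% of all listed genes reached.

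The 4 antagonists that act at the membrane or inside the cell were all above 10 CPM, where 42.3% of all listed genes had 10 CPM or more. bambia, a pseudoreceptor that lacks the kinase domain, was at 114 CPM and its copy bambib at 18.4 CPM. The ubiquitin ligases smurf1 and smurf2, which mark Smads and receptors for degradation, were at 32.3 and 30.9 CPM.

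The targets included the highest read levels among the members. Id proteins are helix-loop-helix proteins without a DNA-binding region, and their genes respond directly to Bmp through Smads. id1 was at 407 CPM (8.67 log2 CPM), id2a at 227 CPM, id3 at 108 CPM and id4 at 4.25 CPM, and the added id2b was at 16.1 CPM. Thus 3 of the 4 Id members had 100 CPM or more, where 9.22% of all listed genes did. The Msx homeobox genes gave lower values, with msx3 at 21.6 CPM, msx1b at 18.6 CPM, msx1a at 4.27 CPM, and the added msx2b and msx2a at 5.46 and 0.386 CPM. tgfbi, a secreted matrix protein named for its induction by Tgf-beta in human cells, was at 136 CPM. Other signals also act on these genes, so their level is not a measure of Bmp signalling.

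A few members carry the name but have another function. bmp1a and bmp1b encode proteases of the Tolloid type, which cleave Chordin, and were at 8.59 and 0.773 CPM. bmp2k, a kinase, was at 67.6 CPM, and tgfbrap1, an adaptor that binds the receptors, was at 8.87 CPM.

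Among the members, 20 pairs of paralogues differ only in the final letter a or b. Both copies had at least 1 CPM in 15 pairs, 1 copy had it in the other 5 pairs, and there was no pair with both below. Counted as single genes, 35 of the 40 (87.5%) had at least 1 CPM and 20 (50.0%) at least 10 CPM, where 73.9% and 42.3% of all listed genes did. All 40 have a symbol, and the shares among genes with a symbol were not computed. The 5 pairs on either side of 1 CPM were acvr2a, bmp1, fst, inhba and tgfbr2. It was the b copy that lay below in 4 of them and the a copy, tgfbr2a, in the remaining pair. In 5 pairs both copies had 10 CPM or more, and these were bambi, bmpr1a, fstl1, smad6 and tgfb1. These counts leave out pairs with an added gene. Of those, id2a and the added id2b were at 227 and 16.1 CPM. The added msx2a and msx2b were at 0.386 and 5.46 CPM, so there the a copy lay below 1 CPM. The added smad10a and smad10b were at 2.54 and 8.16 CPM. How reads were divided between similar copies was not tested.

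**Figure D3:**
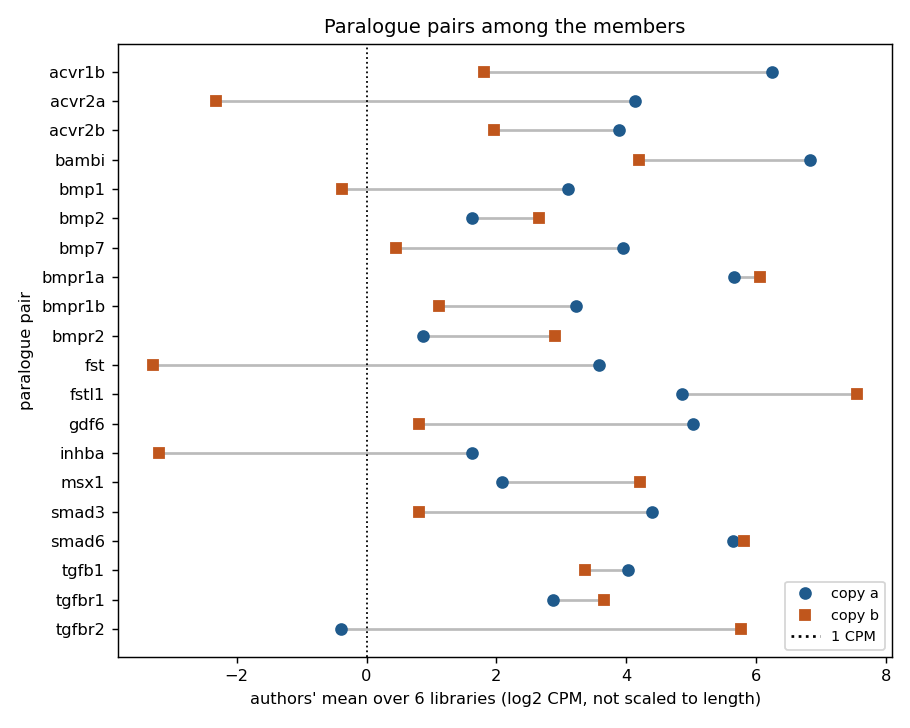
Read levels of the 20 paralogue pairs. Circles are the a copies and squares the b copies, at the authors' mean over 6 libraries in log2 CPM (horizontal axis, not scaled to length); grey lines join the copies of a pair and the dotted line is 1 CPM. The 5 grey lines that cross the dotted line are acvr2a, bmp1, fst, inhba and tgfbr2.

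Some members lie next to each other in the genome. Their order was read from RefSeq genes on GRCz12tu, another assembly than that of the reads, and 91 of the 92 genes (the members and those added) could be placed. In 6 pairs the genes lay within 5 protein-coding places of each other, and in 5 of these no protein-coding gene lay between them. smad3a stood next to smad6a and smad3b next to smad6b. The values of the first pair were 21.0 and 50.2 CPM, and those of the second 1.75 and 56.3 CPM, so that the smad3 copies lie on different sides of 10 CPM while both smad6 copies lie above it. The other adjacent pairs were acvr1ba and acvrl1, bmp2a and gdf3, and tgfbi with the added smad5. bmpr1bb and smad4a had 3 genes between them.

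A list of 42 further pathway genes outside the naming rule was also examined, and 32 of them were found. Of these, 28 had at least 1 CPM and 17 had at least 10 CPM, where 73.9% and 42.3% of all listed genes did, and their median was 3.43 log2 CPM. The genes not found are left out of these counts, namely twsg1b, ltbp3, lefty1, lefty2, ndr2, eng, mstna, mstnb, sosta and cer1. Whether a filter on low counts or another name kept them out was not tested. The corepressor gene tgif1 and zeb2a, which encodes a Smad-interacting repressor, were at 159 and 238 CPM. bmper, a secreted modulator of Bmp ligands, was at 91.8 CPM, and neo1a, a receptor for the co-receptors of the Rgm family, was at 63.8 CPM. vox, a ventral target of Bmp in the gastrula, was at 31.9 CPM. The 4 genes below 1 CPM were twsg1a, szl, ndr1 and inha.

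Markers of other cell types were also listed with these pooled means. All 7 endothelial markers (cdh5, kdrl, fli1a, etv2, tal1, egfl7 and tie1) lay between 186 and 1194 CPM. The highest was fli1a, the gene whose reporter defined the Tg(fli1a:egfp) sort, and tal1 was next at 1034 CPM. The 3 endocardial markers fn1a, klf2a and nfatc1 were at 751, 23.7 and 22.6 CPM. The 4 red blood markers ran from 2.59 to 140 CPM, the 3 myeloid ones from 2.52 to 935 CPM, the 3 epidermal ones from 44.8 to 1633 CPM, the 3 skeletal muscle ones from 2.41 to 94.8 CPM, the 3 neural ones from 2.87 to 89.2 CPM, the 3 neural crest ones from 1.20 to 18.6 CPM and the 3 myocardial ones from 1.23 to 16.1 CPM. On the CPM scale every listed gene has a value above 0, the lowest being 0.0223 CPM. A low value alone therefore does not show that such cells were present. Which cells the higher values came from was not tested. The part of these cell types in the ligand, antagonist and target levels was not tested either.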

How the data were processed

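The authors made cDNA by Smart-seq2, used Rsubread both to map reads (GRCz11) and to count them over genes, and ran limma on the result. Versions, the filter on low counts and the normalization are not given in the sources used here. The authors' deposited table gives 1 mean per gene over all 6 libraries in log2 CPM, which sums to 956297 CPM on the linear scale. Its other columns (fold change, confidence limits, t-statistic, p-value, adjusted p-value, log-odds) hold the authors' own comparison of the lines and were not used, so no test was made.

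Members were matched by symbol. The gene name list matched 18622 of 19722 identifiers. Read levels of 1, 10 and 100 CPM were used for counts. Named genes were, per role, the 5 highest and the lowest, all receptors, Smads and targets, and all paralogue pairs; the remaining members were named after their values were seen, so that each is accounted for. The members and lists were chosen with earlier results of these data known. Matching and roles were checked on known names and percentiles on simulated data. Python 3.11.15, numpy 2.4.6, pandas 2.3.3 and matplotlib 3.10.9 were used.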

Additional observations from a re-analysis of the deposited data

How the results depend on the processing

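Taking names from the gene name list in place of the symbols gave 90 members against 79. That list gave 2 of the 79 members a name outside the rule. The count at or above 1 CPM, 65, became 69 at 0.5 CPM and 46 at 5 CPM. It was 74 with the added genes, a setting chosen after seeing the data. The median of the members, 3.22 log2 CPM, became 2.79 as an arithmetic mean, 3.66 for members at or above 1 CPM and 3.07 with the added genes. The median lay at percentile 56.7 among all listed genes but at 48.1 among genes with a symbol, so whether the pathway lay above or below the middle depended on the genes it was set against. Of 12 roles, the arithmetic mean was lower than the median in 7 and higher in 3, and for secreted antagonists it was 0.60 against -0.09. Members at or above 1 CPM alone moved that role to 2.74, and the added genes moved targets from 5.59 to 4.22. Levels per kilobase and ratios between paralogues per kilobase were not run, because transcript lengths were not used here, and leaving out replicates was not run. No paired analysis was possible because the value analysed is a mean over all libraries. For the same reason, depth and replicate error set no stated limit here. How many reads lie behind values well under 1 CPM is not known.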
